A study of Macaca mulatta and Mus musculus and Rattus norvegicus with 12 samples.

Results

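A set of 10 genes, of cartilage matrix and of the SOX family that directs it, was followed in bone of the skull vault (calvaria) and of the tibia. They were SOX9, SOX5, SOX6, ACAN, HAPLN1, MATN1, MATN3, COMP, CYTL1 and PRG4, and their rows were found by gene symbol. All 10 had a row among the 38599 symbols of the mouse table and the 35259 of the rat table. In the macaque table of 28641 symbols 7 of the 10 had a row, and ACAN, CYTL1 and PRG4 had none. The study sequenced poly(A)+ RNA of bone enriched for osteocytes, the cells buried in bone matrix, to compare skull with long bone in 3 species. Mouse bone came from C57BL6 females of 4 months, in pools of 3 animals, 2 for the calvaria (libraries M4 and M8) and 2 for the tibia (M5 and M7). Rat bone came from Wistar females of 6 months, in pools of 2 animals, 1 for the calvaria (R1) and 1 for the tibia (R3), so rat values have no replicates. Rhesus macaque bone came from females, 1 animal a library, with 3 libraries for the calvaria (G1, G3, T1) and 3 for the tibia (G2, G4, T2), aged 4 to 6 years in the study's methods although the sample labels give months. The paper describes skull and long bone of each species as pairs, so 3 macaques gave both bones. Which libraries pair is not named, and the main tests did not use the pairing. By their labels the groups of a species differed in bone only. Rodent tibias were opened at the metaphysis and spun to remove marrow, rodent calvariae were taken without sutures, and macaque pieces were sawn out, so the way of sampling differed between sites and species.

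SOX9 is the transcription factor that commits cells to the cartilage lineage, and SOX5 and SOX6 act beside it to drive the genes of cartilage matrix. Aggrecan (ACAN) is the large proteoglycan that holds water in cartilage, and link protein (HAPLN1) fastens it to hyaluronan. Matrilins (MATN1 and MATN3) and COMP join collagen fibrils to other matrix proteins, CYTL1 is a small protein secreted by chondrocytes, and PRG4 (lubricin) coats the joint surface and lowers its friction. In adult long bone these genes are known from the articular surface and what remains of the growth plate, whereas the skull vault forms without a cartilage template. SOX6 also acts in red blood cell precursors, and COMP is made in tendon as well.

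Reads on named genes numbered 13934813 to 16826535 in the mouse libraries, 12233256 and 14255423 in the rat libraries and 7951585 to 10342459 in the macaque libraries. Levels are given as CPM, read counts scaled to the size of the library, with TMM factors in mouse and macaque and without them in rat. Markers of osteocytes were present at both sites, and their summed level was higher in every tibia library than in every calvaria library of the same species. It was 1088 to 1931 CPM in mouse calvaria against 7785 to 10592 in tibia, 500.2 against 7242 in rat, and 4942 to 5669 against 7493 to 17198 in macaque. Neutrophil markers, which belong to marrow, summed to 7012 to 120317 CPM and were read in all libraries. In bulk tissue, fewer cells of a type and less RNA per cell cannot be told apart.

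In mouse 5 of the 10 genes were higher in tibia (PRG4, CYTL1, COMP, SOX9 and MATN3) and none was higher in calvaria. The calls are those of edgeR's quasi-likelihood test at a false discovery rate under 0.2 with a fold change over 1.1, a rule that called 2.28% of the 22339 mouse genes tested, 1.57% as higher in tibia and 0.712% as higher in calvaria. The 2 libraries of one site did not overlap with the 2 of the other for 9 of the 10 genes, against 35.7% of all genes, and 8 of these were higher in tibia, against 18.4%. In macaque 6 of the 7 genes with a row had reads and 2 were called, HAPLN1 as higher in tibia and SOX6 as higher in calvaria. The same rule called 19.7% of the 18894 macaque genes tested, 9.43% as higher in tibia and 10.3% as higher in calvaria. In rat 4 of 10 genes, HAPLN1, MATN1, CYTL1 and ACAN, were past a log2 ratio of 2, all as higher in tibia, where 9.69% of the 19234 rat genes with reads were past it and 8.14% in that direction. The rat ratio was taken with 1 read added to each library and carries no test. With 5 reads added ACAN (-1.54) and MATN1 (-1.48) were no longer past it, with 0.5 reads added COMP (-2.54) and, as higher in calvaria, MATN3 (2.59) passed it too, and MATN3 (2.07) passed it with TMM factors.

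**Figure D1:**
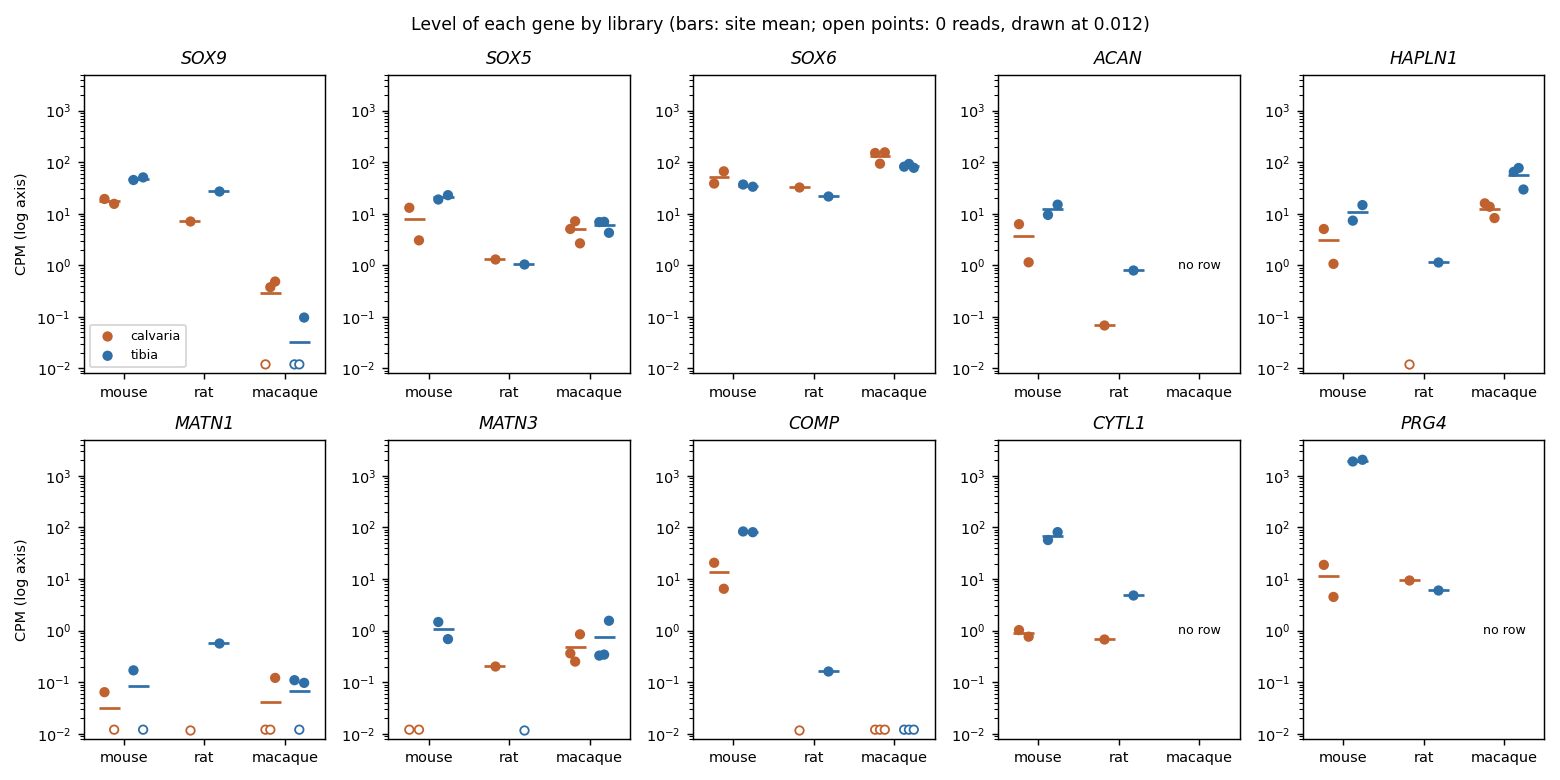
Level of the 10 genes in each library, in CPM on a log axis, for mouse, rat and macaque, with calvaria in orange and tibia in blue. Points are libraries, bars are site means, and open points are libraries with 0 reads. In mouse the tibia points of PRG4 lie at 1903 and 2052 CPM, above calvaria points of 4.50 and 18.8, while the SOX6 points lie slightly lower in tibia than in calvaria in each species.

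SOX9 rose in mouse tibia. Its gene (chr11:112782224-112787760 on the plus strand of GRCm38) had 302 reads in M4 and 204 in M8 from calvaria, against 798 in M5 and 740 in M7 from tibia. Both tibia libraries were above both calvaria libraries, and libraries of a site were close to each other. The mean was 17.4 ± 2.67 CPM (SD, n = 2) in calvaria and 47.9 ± 3.91 in tibia, a log2 fold change of calvaria over tibia of -1.46 (SE 0.275, edgeR adjusted p = 0.0203), or 2.74-fold more in tibia. The call needed both tibia libraries, as the edgeR adjusted p was 0.258 without M5 and 0.452 without M7. It was also lost with stricter filters, at edgeR adjusted p = 0.259 with filterByExpr, 0.293 with a read in every library and 0.284 among symbols read in all 3 species. In rat SOX9 had 103 reads in calvaria and 342 in tibia, a depth-corrected read ratio of 3.87 (95% exact interval for counting error 3.10 to 4.87), and its log2 ratio of -1.94 fell just short of the threshold. In macaque it was barely detected, with 0, 3 and 4 reads in G1, G3 and T1 and 0, 0 and 1 in G2, G4 and T2. That is a calvaria over tibia read ratio of 8.05 with an exact interval of 1.03 to 363, and edgeR gave an adjusted p of 0.475. The macaque gene model of SOX9 covers 1530 bases against 4146 in mouse and 4206 in rat.

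SOX5 was not called at either site in any species. Its mouse gene (chr6:143828425-144781977, minus strand) shares 1330 of its 14376 exonic bases with the antisense gene Sox5os1. Reads were counted without regard to strand, so reads on the shared bases cannot be assigned to either gene. Mouse calvaria had 204 reads in M4 and only 40 in M8, against 334 in M5 and 335 in M7. Both tibia libraries were higher, but M4 lay nearer to them than to M8. The log2 fold change was -1.37 (SE 0.492, edgeR adjusted p = 0.367). It was -2.80 without M4 and -0.68 without M8, in fits that assume the lone calvaria library to vary like the tibia libraries. Rat had 19 reads in calvaria and 13 in tibia, a tibia over calvaria ratio of 0.797 whose interval of 0.362 to 1.70 spans equality. Macaque had 42, 57 and 22 reads in calvaria against 63, 61 and 44 in tibia, and the sites overlapped, with a log2 fold change of -0.28 (SE 0.414, edgeR adjusted p = 0.721).

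SOX6 leaned the other way, with a higher level in calvaria than in tibia in each species, and the difference was called in macaque. Macaque calvaria had 1248 reads in G1, 744 in G3 and 1280 in T1, against 747 in G2, 809 in G4 and 801 in T2. As levels these were 150.5, 93.3 and 155.1 CPM against 81.7, 92.3 and 77.8, so the sites stood apart, though G3 exceeded G4 by little. The log2 fold change was 0.66 (SE 0.195, edgeR adjusted p = 0.0199), 1.58-fold more in calvaria. Among the G libraries alone the calvaria mean was 1.40-fold above the tibia mean, and T1 was 1.99-fold above T2. In mouse (chr7:115470872-116038796, minus strand) calvaria had 602 and 871 reads in M4 and M8 and tibia 652 and 488 in M5 and M7, or 38.5 and 66.4 CPM against 36.8 and 33.4. The log2 fold change of 0.58 was not called (SE 0.295, edgeR adjusted p = 0.682). It was 0.89 without M4 and 0.13 without M8, fits in which the lone calvaria library had no spread of its own. Rat had 476 reads in calvaria and 270 in tibia, a calvaria over tibia ratio of 1.51 (exact interval 1.30 to 1.76). This ratio was taken without TMM factors, and with them it rose above that interval. Erythroid markers, which belong to a cell type that uses SOX6, were also higher in macaque calvaria, as were neutrophil, megakaryocyte and B cell markers. The erythroid sum was 1202 to 1590 CPM in calvaria and 229.2 to 376.1 in tibia. The 2 erythroid markers with a row, ALAS2 (heme synthesis) and AHSP (a globin chaperone), were both higher in calvaria, by log2 2.13 and 2.34. Within macaque calvaria the sum was 1252 CPM in G3 and 1202 in G1, the reverse of their SOX6 order. The erythroid sum was 8198 CPM in rat calvaria and 4118 in tibia. In mouse it was 800.8 in M4 and 2276 in M8 against 1118 in M5 and 1249 in M7. M8 was above M4 as for SOX6, but M4 was below both tibia libraries, unlike for SOX6. The part of these cells in the SOX6 difference was not tested.

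**Figure D2:**
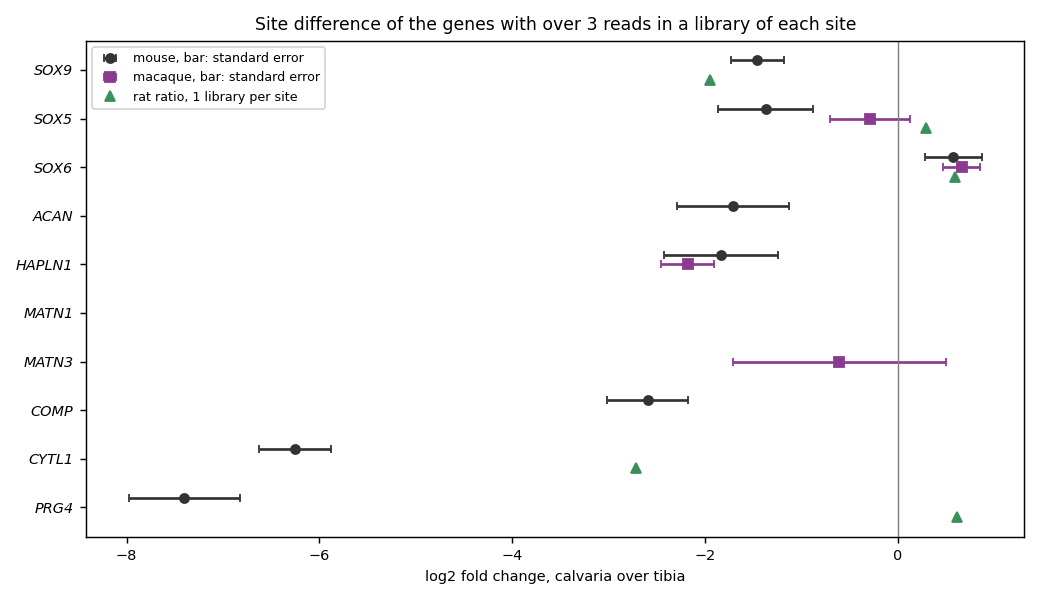
Log2 fold change of calvaria over tibia for the genes with over 3 reads in a library of each site. Mouse and macaque points carry standard errors from edgeR and rat triangles are ratios of single libraries without TMM factors. PRG4 at -7.40 and CYTL1 at -6.25 in mouse lie farthest to the left, HAPLN1 lies at -1.83 in mouse and -2.18 in macaque, and the 3 SOX6 points lie between 0.58 and 0.66.

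HAPLN1 rose in macaque tibia. Macaque calvaria had 132, 109 and 68 reads in G1, G3 and T1, against 593, 675 and 304 in G2, G4 and T2. The lowest tibia library was above the highest calvaria library, and within each site the T library was lowest. The mean was 12.6 ± 3.95 CPM (SD, n = 3) in calvaria and 57.1 ± 24.7 in tibia, a log2 fold change of -2.18 (SE 0.277, edgeR adjusted p = 2.33e-07), 4.52-fold more in tibia. The tibia mean was 4.80-fold above the calvaria mean among the G libraries, and T2 was 3.58-fold above T1. Mouse HAPLN1 (chr13:89539796-89611652, plus strand) had 79 and 14 reads in M4 and M8 against 130 and 215 in M5 and M7. Tibia was higher without overlap, but M4 was 4.74-fold above M8 in CPM, and the log2 fold change of -1.83 was not called (SE 0.588, edgeR adjusted p = 0.262). It was -3.38 without M4, -1.12 without M8, -2.25 without M5 and -1.25 without M7. Each of these fits left 1 library at a site, with no spread of its own. Rat HAPLN1 had 0 reads in calvaria and 14 in tibia, 5.44-fold higher in tibia when the calvaria library is set to a floor of 3 reads. Such a bound takes the tibia count as exact, and the exact interval of the read ratio began lower, at 3.87. Every interval here covers counting error only.

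ACAN, the partner of link protein, was read in mouse tibia at 168 in M5 and 219 in M7, and in calvaria at 98 in M4 and 15 in M8 (chr7:79053483-79115099, plus strand). Tibia libraries were again above both calvaria libraries, with a wide gap between M4 and M8. The log2 fold change was -1.71 (SE 0.580, edgeR adjusted p = 0.313). It became -3.43 without M4 and -0.96 without M8, fits in which the lone calvaria library had no spread of its own. With a replicate block, 1 of the 2 possible pairings of the mouse libraries called ACAN, HAPLN1 and SOX5 (edgeR adjusted p = 0.0952, 0.0680 and 0.150) and the other called none of them. Rat had 1 read in calvaria and 10 in tibia, a ratio of 11.7 with an exact interval of 1.66 to 506. In the macaque table a row with the older symbol AGC1, described as aggrecan-like, fell outside the selection by symbol and was looked up after its values were seen. It had 29, 24 and 13 reads in calvaria against 78, 53 and 58 in tibia, all tibia libraries higher, with a log2 fold change of -1.32 (SE 0.437, edgeR adjusted p = 0.0452), 2.49-fold more in tibia, a call lost without G2 (edgeR adjusted p = 0.249).

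Matrilins were near the limit of detection. MATN1 (chr4:130944385-130955475, plus strand in mouse) had at most 3 reads in any mouse library and at most 1 in any macaque library, so no fold is given. Rat MATN1 went from 0 reads in calvaria to 7 in tibia, 2.72-fold higher in tibia with calvaria set to 3 reads. The exact interval of its read ratio began at 1.68. MATN3 (chr12:8947929-8972028, plus strand) had 0 reads in both mouse calvaria libraries and 26 and 10 in M5 and M7. This was at least 5.12-fold higher in tibia with the calvaria libraries set to 3 reads each, and was called (edgeR adjusted p = 0.142). The call was lost with a replicate block, at edgeR adjusted p = 0.417 for the assumed pairs and 0.340 for the other pairing, and without either tibia library. It was also lost with filterByExpr (edgeR adjusted p = 0.428) and among symbols read in all 3 species (0.539). In all MATN3 was called in 10 of 17 settings in mouse. In rat MATN3 had 3 reads in calvaria and 0 in tibia. Macaque MATN3 had 3, 2 and 7 reads in calvaria and 3, 3 and 16 in tibia, with the sites overlapping and a log2 fold change of -0.60 (SE 1.1, edgeR adjusted p = 0.789).

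COMP, a pentameric protein of cartilage and tendon matrix, rose in mouse tibia. It had 323 reads in M4 and 85 in M8, against 1480 in M5 and 1184 in M7 (chr8:70373558-70382066, plus strand). The tibia libraries were nearly alike at 83.6 and 81.0 CPM, and the calvaria libraries differed 3.19-fold below them. The log2 fold change was -2.60 (SE 0.416, edgeR adjusted p = 0.00633), 6.04-fold more in tibia. It was -3.69 without M4 and -2.0 without M8, and the call was lost with filterByExpr and with a read in every library (edgeR adjusted p = 0.397 and 0.437). COMP was nearly absent elsewhere, with 0 reads in rat calvaria, 2 in rat tibia and 0 in all 6 macaque libraries, although the macaque table has a row for it with 2422 bases. In mouse, markers of tendon, which also makes COMP, summed to 251.8 CPM in M4 and 42.6 in M8 against 215.0 in M5 and 160.8 in M7. The sites overlapped for these markers, and their part in the COMP difference was not tested.

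CYTL1 showed in mouse tibia one of the sharpest differences of the set. It had 16 reads in M4 and 10 in M8, against 1009 in M5 and 1187 in M7 (chr5:37735519-37739820, plus strand). The calvaria libraries lay at 1.02 and 0.762 CPM and the tibia libraries at 57.0 and 81.2, far beyond the spread at either site. The log2 fold change was -6.25 (SE 0.375, edgeR adjusted p = 1.12e-06), 76.2-fold more in tibia. In rat the direction was the same and the size smaller, with 10 reads in calvaria and 61 in tibia, a ratio of 7.11 (exact interval 3.61 to 15.6). In macaque a row described as CYTL1-like (LOC711664) held 1 read, in T2, and none in the other libraries.

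PRG4 was the most abundant of the 10 genes in mouse tibia and the one with the lowest calvaria over tibia log2 fold change among those with reads at both sites. Mouse calvaria had 294 reads in M4 and 59 in M8, against 33677 in M5 and 29993 in M7 (chr1:150449412-150466165, minus strand). Among all mouse genes by CPM it ranked 22 in M5 and 23 in M7, and 7169 in M4 and 11269 in M8. The mean was 11.7 ± 10.1 CPM (SD, n = 2) in calvaria and 1977 ± 105 in tibia, a log2 fold change of -7.40 (SE 0.577, edgeR adjusted p = 1.47e-05), 169-fold more in tibia. It was -8.80 without M4 and -6.72 without M8. Of its exonic bases 204 are shared with Tpr on the other strand. Rat PRG4 did not follow, with 136 reads in calvaria and 76 in tibia, a tibia over calvaria ratio of 0.651 (exact interval 0.485 to 0.868). The 1 macaque row described as PRG4-like (LOC716849) held 1 read, in G1. In the mouse libraries the markers of skeletal muscle, the tissue around the bone, summed to 2351 CPM in M4, 1458 in M8, 398.0 in M5 and 2045 in M7. The sites overlapped for them, and their part in the PRG4 difference was not tested.

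Per kilobase of exon the set was ordered differently at each site and in each species. In mouse tibia PRG4 led at 450.4 CPM per kilobase, followed by CYTL1 at 71.0, COMP at 27.1 and SOX9 at 11.5. HAPLN1 at 2.14, SOX6 at 2.08, SOX5 at 1.97 and ACAN at 1.58 overlapped between libraries, and MATN3 came after them at 0.357. In mouse calvaria COMP at 4.47, SOX9 at 4.21, SOX6 at 3.11 and PRG4 at 2.65 led, with no clear order among them given the gap between M4 and M8. Rat calvaria was led by PRG4 at 2.64 and SOX6 at 2.54, and rat tibia by SOX9 at 6.65 and CYTL1 at 2.70. In macaque SOX6 led in calvaria at 14.5, ahead of HAPLN1 at 2.29 and SOX5 at 1.02. In macaque tibia HAPLN1 at 10.4 and SOX6 at 9.15 overlapped between libraries. The gene models differ in length between species, so these levels are not compared across species.

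The 2 mouse calvaria libraries disagreed on much of the set. In CPM, M4 was above M8 by 5.49-fold for ACAN, 4.74-fold for HAPLN1, 4.28-fold for SOX5, 4.18-fold for PRG4 and 3.19-fold for COMP. Across 14453 genes with a mean of at least 1 CPM in that pair the median ratio of M4 to M8 was 0.991 and the 95th percentile 3.44. SOX9 at 1.24 and CYTL1 at 1.34 differed less, and SOX6 at 0.580 was lower in M4. Between the tibia libraries the ratios of M5 to M7 were 0.50 for HAPLN1 and 0.634 for ACAN, under those of 97.9% and 95.4% of genes, and 2.15 for MATN3, above the 95th percentile of 1.5. The share of genes with a larger M4 to M8 ratio ran from 2.57% for ACAN to 5.79% for COMP. Other cartilage matrix genes summed to 712.8 CPM in M4 and 324.3 in M8. Of the 10 genes 9 were called without M4 and 8 without M8, against 5 with both, and the genes called over the whole table numbered 7470 (34.4%) and 3816 (17.6%) against 510, where a lone calvaria library gave no spread of its own.

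**Figure D3:**
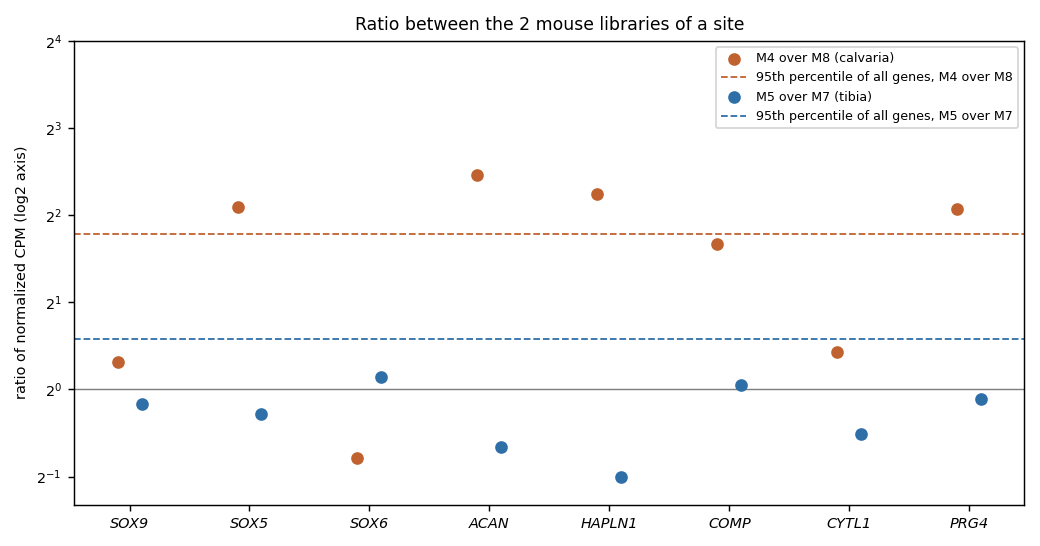
Ratio of CPM between the 2 mouse libraries of a site for the 8 genes with reads in all 4 libraries, on a log2 axis, M4 over M8 in calvaria and M5 over M7 in tibia. Dashed lines are the 95th percentiles of all genes, 3.44 and 1.5. ACAN, HAPLN1, SOX5 and PRG4 lie above the calvaria line, and SOX9, SOX6 and CYTL1 lie well under it.

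Whether a site difference itself differed between mouse and macaque was tested over the 10 libraries for the 8196 symbols with reads in both species, which held 6 of the 10 genes. The rule called 5.65% of these symbols. SOX9 was the 1 gene of the set called, with a mouse minus macaque difference in log2 fold change of -4.16 (SE 1.25, edgeR adjusted p = 0.156), resting on 8 macaque reads in all. It was not called without M5 (edgeR adjusted p = 0.438), M7 (0.391), G2 (0.323), G3 (0.292), G4 (0.284) or T1 (0.367). For SOX6 the difference was -0.09 (SE 0.375) and for HAPLN1 0.35 (SE 0.795), neither called, which leaves room for a difference of either sign. Species also differed in lane, genome and annotation, which cannot be told apart here.

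Other genes of cartilage matrix were also higher in mouse tibia. Of 17, 7 were called as higher in tibia and none as higher in calvaria, with a list median log2 fold change of -2.80 (-1.89 with genes at 0 in a site set to their bound) beside 0.05 over all mouse genes. COL2A1, the main collagen of cartilage, had 909 and 137 reads in M4 and M8 against 10478 and 6963 in M5 and M7. CHAD, a leucine-rich cartilage protein, had 176 and 24 against 3061 and 1693, and COL10A1, the collagen of hypertrophic chondrocytes, had 2 and 6 against 102 and 64. Every one of these tibia libraries was above both calvaria libraries, with log2 fold changes of -3.96, -4.45 and -4.12 (edgeR adjusted p = 0.00272, 0.00148 and 0.0110). SNORC, a small chondrocyte proteoglycan printed in the table under an older symbol, had 0 reads in calvaria and 149 and 185 in tibia, at least 50.1-fold higher (edgeR adjusted p = 7.65e-05). COL9A3, CILP and COL11A1 were the remaining 3. In rat 5 of 13 with reads were past the threshold as higher in tibia, among them COL2A1 with 0 reads against 41 and COL9A3 with 1 against 115, and SCRG1 was past it the other way with 5 against 0. Macaque had rows for 8 of the 17 and reads for 6, and there COL2A1 was higher in calvaria, at 43, 41 and 80 reads against 9, 2 and 46. Its log2 fold change was 1.78 (SE 0.558, edgeR adjusted p = 0.0313), while MIA, a small secreted cartilage protein, was higher in tibia at -0.99 (edgeR adjusted p = 0.00260). The shares over all genes were 2.28% called in mouse, 19.7% called in macaque and 9.69% past the threshold in rat.

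Among regulators of chondrocytes and signals of the growth plate, none of 14 with reads was called in mouse (list median -0.70, or -0.50 at the bound). In rat 3 of 12 were past the threshold, led by IHH, the hedgehog signal of the growth plate, with 4 reads in calvaria and 203 in tibia, beside MEF2C with 2395 and 13644, and NKX3-2 with 0 and 3. In macaque 4 of 10 were higher in tibia and none in calvaria (median -0.57 beside 0.03 over all genes). These were MEF2C at -0.60, TRPS1 at -0.63, WWP2 at -0.55 and RUNX2, a factor of osteoblasts as well as of hypertrophic chondrocytes, at -0.48 (edgeR adjusted p = 0.0219, 0.0222, 0.0536 and 0.110). For enzymes that make and sulfate glycosaminoglycan chains, none of 14 was called in mouse. In macaque PAPSS2, which makes the sulfate donor, was higher in tibia at -0.85 (edgeR adjusted p = 0.00195), and CHST11 and HAS2 were higher in calvaria at 0.88 and 2.67 (edgeR adjusted p = 0.0487 and 0.0460) out of 12 genes. In rat CHST3 and HAS2 of 14 were past the threshold as higher in tibia. Over all genes 2.28% were called in mouse and 19.7% in macaque, and 9.69% were past the rat threshold.

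Relatives of the set by family, namely other SOX factors, matrilins, link proteins, lectican proteoglycans and thrombospondins, gave 1 call in mouse. Of 18 with reads this was MATN4, which was higher in calvaria with 184 and 25 reads in M4 and M8 against 14 and 15 in M5 and M7 (log2 fold change 2.91, edgeR adjusted p = 0.0974). The list median was -0.01, or 0.11 at the bound. In macaque SOX13 at -1.06 and THBS2 at -0.96 were higher in tibia among 14 with reads (edgeR adjusted p = 0.0274 and 0.00308). In rat SOX18 and THBS2 were past the threshold as higher in tibia among 12. Tendon markers gave no call among 5 in mouse, while in macaque FMOD and TNMD, of 3 with a row, were higher in tibia at -1.93 and -1.33 (edgeR adjusted p = 0.000153 and 0.0653). These counts stand beside shares over all genes of 2.28% called in mouse, 19.7% called in macaque and 9.69% past the threshold in rat.

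**Figure D4:**
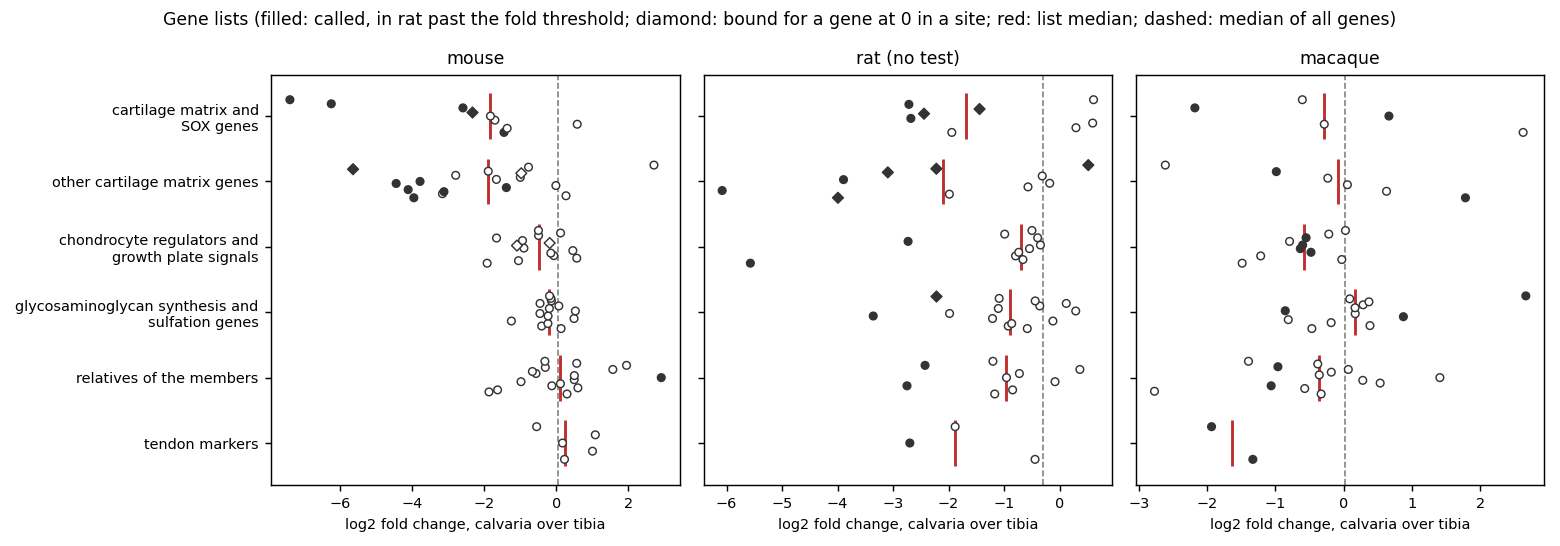
Log2 fold change of calvaria over tibia for the genes of 6 lists in each species, leaving out genes with 3 reads or fewer in all libraries. Filled points were called (in rat, past a log2 ratio of 2), diamonds are bounds for genes at 0 in a site, red bars are list medians and the dashed line is the median of all genes. In mouse the 2 upper lists reach far to the left with medians of -1.83 and -1.89. The lists under them have medians from -0.50, for chondrocyte regulators and growth plate signals, to 0.22, for tendon markers.

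Markers of other cell types also differed between the sites, and their part in the values above was not tested. In mouse all 4 adipocyte markers were higher in tibia, with ADIPOQ at -2.45 and CIDEC at -5.54, and their sum was 505.3 CPM in M4 and 196.4 in M8 against 1084 in M5 and 940.9 in M7. In macaque their sum was higher in calvaria, at 1678 to 2545 CPM against 680.5 to 1434, with FABP4 at 1.11. Among 7 osteocyte markers 5 were higher in mouse tibia, with DMP1 at -2.89 and SOST at -2.84, and in macaque 2 of 4, MEPE at -1.40 and DKK1 at -1.13. The osteoblast list gave 1 call in the tests, SP7 at -0.77 in macaque, and the muscle list gave ACTA1 at -1.94 in macaque, while 8 of 9 muscle genes were past the threshold in rat, whose sum was 8.77 CPM in calvaria and 1090 in tibia. Neutrophil markers were higher in calvaria, with 2 of 6 called in mouse and 4 of 4 in macaque, where S100A8, S100A9, CAMP and MPO lay between 1.77 and 2.74. PPBP, PF4 and ITGA2B of 4 megakaryocyte markers, and the B cell marker VPREB1, were also called as higher in macaque calvaria, and neither list had a call in mouse. In rat 4 of 5 osteocyte markers with reads, SP7 of 5 osteoblast markers, SCX of 4 tendon markers and 1 of 4 adipocyte markers were past the threshold as higher in tibia, and none of the neutrophil, erythroid, B cell or megakaryocyte markers was past it. Beside these marker counts, 2.28% of all genes were called in mouse and 19.7% in macaque, and 9.69% were past the threshold in rat.

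**Figure D5:**
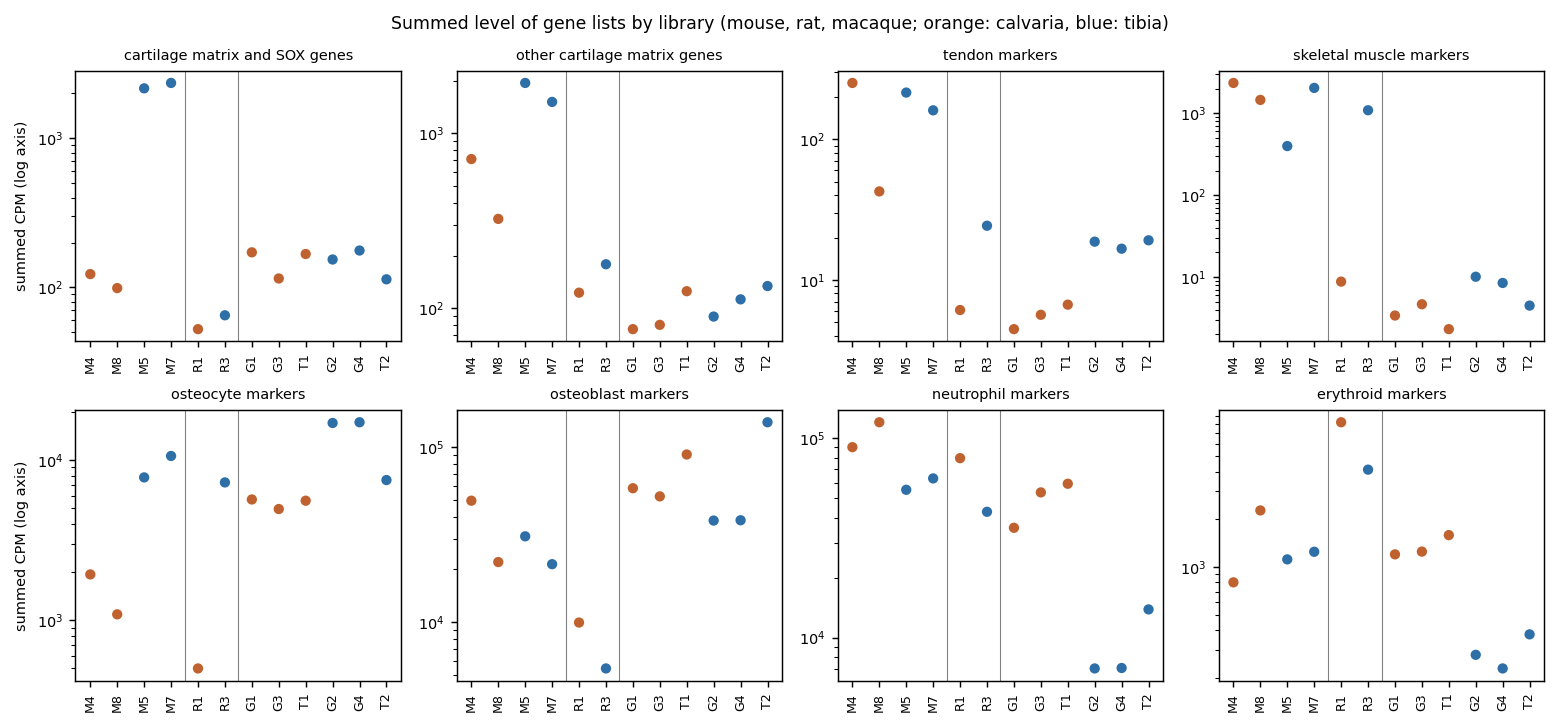
Summed CPM of 8 gene lists in each of the 12 libraries on log axes, with calvaria in orange and tibia in blue and grey lines between mouse, rat and macaque. The cartilage matrix and SOX genes sum to 98.9 and 122.8 CPM in the calvaria of mouse, against 2163 and 2351 in its tibia, while in macaque the sites overlap between 113.3 and 176.7.

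SOX5 and SOX6 were the 2 genes of the set with a mean of at least 1 CPM in every species, and their patterns over the 12 libraries, centred on each species, were compared with those of 5485 genes. The genes most like SOX5 were GBP2 (Pearson r = 0.960), VIT (0.921) and FN1 (0.914), and those most like SOX6 were OGFRL1 (0.974), STOM (0.959), which encodes a red cell membrane protein, and PLXNC1 (0.945). These coefficients describe 12 libraries that share species, site and marrow content.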

How the data were processed

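The authors mapped single reads of 125 bases (HISAT2 in the paper's methods, BWA 0.7.10-r789 in the submitters' processing notes) and counted them with HTSeq without strand on merged exons. As deposited, each table holds raw counts of reads per gene for every library, which were used here as they stand. The deposited normalized signal of the authors, a constant times the count, was not used, and the deposited exonic length served for values per kilobase. Rows naming no gene held 0.00261% to 0.0663% of the reads of a library and were left out, and rows sharing a symbol were summed. Mouse coordinates are from GENCODE vM21.

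Mouse and macaque were each fitted by the quasi-likelihood method of edgeR 4.0.16 (R 4.3.3), with TMM factors of 0.884 to 1.12, on all symbols with a read, and p-values were adjusted by Benjamini-Hochberg over all of them. Calls needed an adjusted p below 0.2 with more than 1.1-fold change, the limits stated by the study. The study also dropped genes without reads in any one of its samples, which the main tests here did not do. Common biological coefficients of variation were 0.348 (mouse) and 0.295 (macaque). In rat 1 read was added to each library, and a log2 ratio past 2 was counted. Where a site had no reads its libraries were set to 3 reads for a bound, which takes the count of the other site as exact. Ratios of reads carry 95% exact binomial intervals. The p-values measure the spread between pools in mouse and between animals in macaque.

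The genes and the lists were chosen with earlier results of these data known. Named were all 10 genes, up to 4 called genes of smallest p from each list, and the 3 genes most like each of SOX5 and SOX6, and others are named where a count is spelled out or a row was looked up. Of the markers so chosen, 1 is left unreported here. On simulated counts with 200 genes changed by a log2 fold change of 2, the test recovered 178 in mouse and 197 in macaque, and 20.2% and 10.5% of its calls fell on unchanged genes. The interaction test recovered 132 of 200 (19.5% unchanged). The rat ratio found 188 of 200 genes changed by 3, and 58.9% of its calls were unchanged genes. Every simulated gene had the same spread between libraries, set below the common spread estimated in mouse and in macaque. Only genes with more reads were changed. The simulated setting was thus easier than the data, and recovery in the data may be lower. Skull and long bone came in pairs, per the paper, but which libraries pair is not named. With G1 and G2, G3 and G4, and T1 and T2 assumed as pairs, deviations from site means correlated over 12305 genes at 0.203, 0.282 and 0.446, against -0.351 to 0.0898 for other combinations. In mouse this check is uninformative. Alternatives covered scaling, filters, tests, thresholds, length, symbols, a replicate block and leaving out each library, with DESeq2 1.42.0 as another test. Tables were handled in Python 3.11.15 with scipy 1.17.1 and pandas 2.3.3.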

Additional observations from a re-analysis of the deposited data

Results flagged for a closer look

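A single result met a rule for a closer look. The site difference of SOX9 differed between mouse and macaque, with a mouse minus macaque difference in log2 fold change of -4.16 (SE 1.25, edgeR's quasi-likelihood interaction test, adjusted p = 0.156). In mouse SOX9 was read more in M5 and M7 (tibia) than in M4 and M8 (calvaria), and in macaque 7 of its 8 reads were in calvaria. The macaque value rests on too few reads for a firm direction, and the species also differed in lane, genome and gene model.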

How the results depend on the processing

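PRG4 and CYTL1 in mouse were called in each of 17 settings tried (log2 fold change -8.80 to -6.72 and -6.51 to -5.98), HAPLN1 in macaque in each of 21 (-2.48 to -1.89) and SOX6 in macaque in 20 of 21 (0.46 to 0.92). The mouse counts depended most on the filter, and the cause was not tested. Mouse genes called fell from 510 to 208 at a false discovery rate under 0.05, 29 with filterByExpr, 14 with a read required in every library, 20 among symbols with a read in all 3 species and 295 with a replicate block of assumed pairs (395 with the other pairing). Of the set 2 genes were called with filterByExpr, 2 with a read in every library and 0 among symbols with a read in all 3 species. That last setting left out ACAN, COMP, CYTL1 and PRG4, which had no macaque reads under their symbols. In the main edgeR test 1810 mouse genes had an unadjusted p under 0.05. Leaving out a library gave 220 to 7470 mouse genes and 3 to 9 of the set. Macaque genes called went from 3724 to 1978 under the stricter rate of 0.05, 1550 at an absolute log2 fold change over 1.1 and 2136 among symbols with a read in all 3 species, with 2301 to 4998 when a library was left out. Of the set 1 macaque gene was called at an absolute log2 fold change over 1.1, and 2 without any one library. The rat count of 1864 became 690 with 5 reads added, 1111 with at least 10 reads in either library and 6072 past a log2 ratio of 1. The interaction count of 463 became 35 at a false discovery rate under 0.05, 1072 with the likelihood ratio test, and 33 to 1108 without a library. Signs turned for values near 0 or of few reads when a library was left out. MATN1 in mouse lay between -3.58 and 2.30 (positive without M5), SOX5 in macaque between -0.64 and 0.017 (positive without T1) and MATN3 in macaque between -1.25 and 0.53 (positive without T2). The mouse minus macaque difference lay between -0.54 and 0.25 for SOX6 (positive without M4 or T1), between -1.17 and 1.05 for HAPLN1 (negative without M4 or M5) and between -2.44 and 2.54 for MATN1 (positive without M5, M8 or T1). The replicate block with assumed pairs ended the call of MATN3 in mouse. The other pairing also ended it and added calls of SOX5, ACAN and HAPLN1 (edgeR adjusted p = 0.150, 0.0952 and 0.0680), and no call of the set changed in macaque with a block. Scaling by library size alone ended no call of the set. Over genes with a mean above 1 CPM it shifted log2 fold changes by a median of -0.20 in macaque and -0.08 in mouse. Over the single genes, 136 of 162 mouse values kept their direction and their side of the threshold, with 14 calls lost, 11 gained and 1 sign turned. In macaque 109 of 112 kept both, with 1 call lost and 2 signs turned, and of the species differences 72 of 90, with 7 lost, 4 gained and 7 turned. In rat 36 of 37 ratios stayed within their counting interval, and that of SOX6 with TMM factors rose above it. The 4 genes past the threshold became 2 with 5 reads added, 5 with 0.5 reads added and 4 with TMM factors. Adding 0.5 reads and using TMM factors each also brought in MATN3 as higher in calvaria. Depth limits MATN1 and MATN3 in all 3 species, SOX9 in macaque, COMP in rat and macaque, and ACAN in rat, which had 10 reads or fewer in most libraries.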
